A study of Mus musculus with 33 samples.

Results

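The cytoplasmic ribosomal protein genes encode the protein subunits of the ribosome that translates nuclear mRNAs. They were taken by symbol, as names of Rpl or Rps with a number and at most 1 further letter a, x or l, together with Rplp0, Rplp1, Rplp2 and Rpsa, and without the Rps6k kinases. Of 47729 genes in the count tables, 82 had such a name and 80 had 10 or more counts over all 33 libraries. The 80 genes comprised 32 of the small subunit, 45 of the large subunit and 3 of the P stalk, and lay on 19 chromosomes. Just outside the count minimum were Rpl10l and Rpl39l, each with 0 counts, and just inside it was Rpl24 with 179. Rpl24 was the only member that the filter on low counts removed, so 79 members were tested.

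All libraries were made from total RNA of C57BL/6J mouse cells, labelled as retinal progenitor cells of embryonic day 14 retina, with 3 libraries in each of 11 groups. At day 0 the cells were untreated, primed towards cones with COCO, a protein that blocks ligands of the TGF-beta, BMP and Wnt pathways, or primed towards rods with taurine and retinoic acid. Cone and rod inductions with the same factors were sampled at days 5, 12, 21 and 35. How long each factor was present is not described in the sources used here, and no untreated cells at later days were analysed here.

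Each ribosome carries about equal numbers of most of these proteins, and cells keep their synthesis in step. Many of the mRNAs begin with a C followed by a run of pyrimidines, the terminal oligopyrimidine (TOP) tract, through which the mTOR pathway and the RNA-binding protein LARP1 control translation and mRNA stability. Making ribosomes is among the largest costs of a dividing cell, and retinal progenitors leave the cell cycle as they form neurons. Some subunits have a second role, such as RPL5 and RPL11, which bind MDM2 and so restrain the loss of p53.

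Promoter windows of 300 bases, from 250 before to 50 after the annotated start, were given by RefSeq (GRCm38.p6) for 58 of the 80 members, in 70 windows. A C at the start followed by 4 or more pyrimidines was found on the transcribed strand for 13 of these 58 genes (22.4%), against 3.01% of all 27025 genes with a window. The motif CCGGAAG, the core bound by ETS-family factors, was searched on both strands of the window and was held by 24 of the 58 (41.4%), against 9.93% of all genes. CTCTTTC, also on both strands, was held by 17 of the 58 (29.3%), against 9.28% of all genes, and it can overlap the pyrimidine tract. A match describes the letters of the window only.

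The stretches below run from 30 bases before the annotated start to 20 from it, 5′ to 3′. They are shown because the tract at the start, in capitals, is the feature for which these mRNAs are known, in members of the small subunit, the large subunit and the P stalk.
Rps6: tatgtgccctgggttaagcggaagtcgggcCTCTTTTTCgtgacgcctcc
Rps10: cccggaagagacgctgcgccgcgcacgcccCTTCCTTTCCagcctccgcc
Rps27: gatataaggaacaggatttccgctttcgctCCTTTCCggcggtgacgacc
Rplp2: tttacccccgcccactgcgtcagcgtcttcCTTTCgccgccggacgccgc
Rpl15: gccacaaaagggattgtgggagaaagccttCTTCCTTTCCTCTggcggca
Rpl28: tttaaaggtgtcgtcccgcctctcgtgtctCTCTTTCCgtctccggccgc
Rpl35: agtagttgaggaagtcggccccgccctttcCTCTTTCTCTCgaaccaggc
Rpl38: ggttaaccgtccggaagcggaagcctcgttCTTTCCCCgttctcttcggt
Those of Rps6 (chr4:86857348-86857397), Rps10 (chr17:27635225-27635274), Rps27 (chr3:90213629-90213678), Rpl15 (chr14:18270967-18271016) and Rpl35 (chr2:39005112-39005161) lie on the minus strand. Those of Rplp2 (chr7:141447621-141447670), Rpl28 (chr7:4792935-4792984) and Rpl38 (chr11:114668550-114668599) lie on the plus strand. Of the members whose levels departed most from the rest, Rpl15 has the tract shown above. Rps27l and Rpl3l have none at the annotated start and so no capitals. Most tested members with a window, 44, also had none at that exact base, and a tract starting a few bases away was not counted.
Rps27l: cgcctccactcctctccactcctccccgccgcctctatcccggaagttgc
Rpl3l: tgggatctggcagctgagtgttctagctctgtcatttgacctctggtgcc
They lie on the plus strand at chr9:66946056-66946105 and chr17:24727796-24727845, and each gene has 1 further annotated start without a tract.

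A library held between 7511837 and 19166442 gene counts, of which the members took 62055 to 166424. Levels are given as CPM, the gene's counts scaled to a common library size after normalisation by edgeR's trimmed mean of M values, and the upper limit for a gene with 0 counts, taken as 3 counts, lay between 0.157 and 0.399 CPM over the libraries. All 10 retinal progenitor markers (such as Rax and Pax6) were detected at day 0, at a summed 1122 to 1502 CPM in the primed libraries. Photoreceptor markers summed to 619 to 1213 CPM at day 0 over the untreated and primed libraries, and to 9.30 to 35.6 CPM at day 35. Mesenchyme markers such as Col1a1 summed to 3.87 to 24.0 CPM in untreated cells and to 515 to 3686 CPM in cone cultures at day 35, and all 7 of these markers were detected there. In bulk RNA, fewer cells of a type and less RNA per cell cannot be told apart. The labels do not say that replicates came from separate cultures or animals, so p-values measure the spread between these libraries, which may be technical.

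The members fell together by day 5 in both conditions and rose again by day 12 in cone cultures. The median CPM of the 79 tested members was 92.8, 125 and 91.8 in the 3 cone-primed libraries and 72.5, 57.2 and 57.9 in cone cultures at day 5. In the rod-primed libraries it was 121, 123 and 134, and in rod cultures at day 5 it was 80.3, 57.0 and 62.6. In both conditions every day 5 library was below every primed library. By day 12 the median was 92.9, 89.5 and 111 CPM in cone and 88.3, 77.6 and 88.6 in rod cultures. At day 35 it was 140, 102 and 127 CPM in cone and 92.7, 106 and 121 in rod cultures, groups that overlapped.

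**Figure D1:**
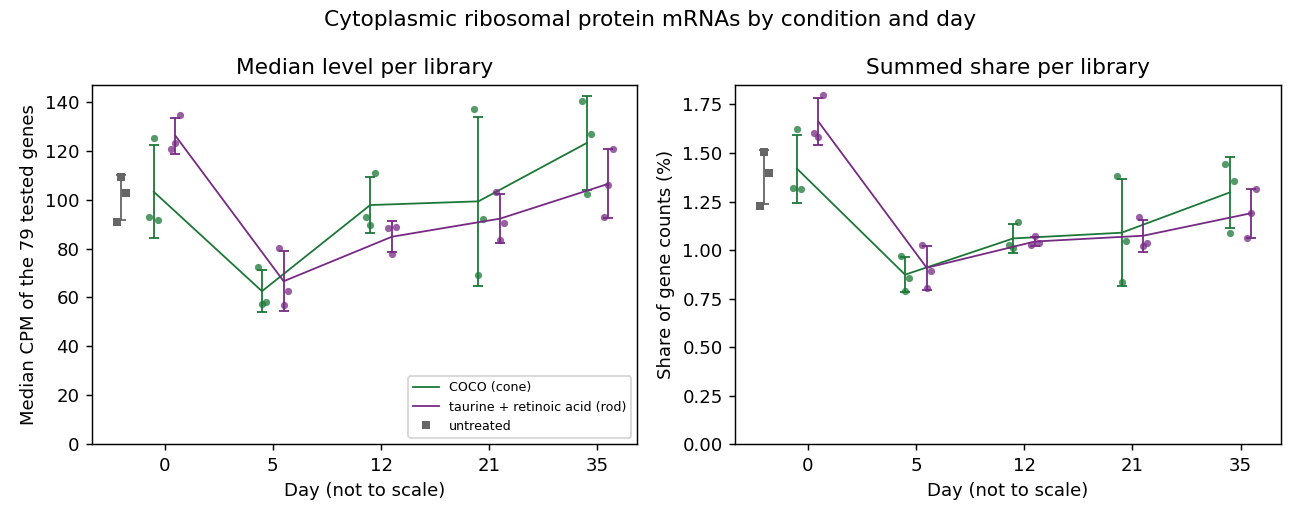
Median CPM of the 79 tested ribosomal protein genes (left) and their summed share of gene counts outside mitochondrial and ribosomal RNA genes in percent (right), by day. Points are libraries, bars the mean and SD of 3; every day 5 library lies below every primed library of its condition, and the cone libraries at day 21 spread from 69.0 to 137 CPM.

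As a share of gene counts outside mitochondrially encoded genes and genes over ribosomal RNA, the members made up 1.42% ± 0.175 (SD, n = 3) in cone-primed cells and 0.873% ± 0.0915 in cone cultures at day 5. In rod-primed cells the share was 1.66% ± 0.121, and in rod cultures at day 5 it was 0.908% ± 0.113. The groups did not overlap in either condition, and the two-sided exact permutation test gave p = 0.1, the smallest that 3 against 3 libraries allow (0.34 after Benjamini-Hochberg adjustment over 17 comparisons). The share of counts over ribosomal RNA also moved, from 13.2 to 21.5% in primed libraries to 5.22 to 13.1% at day 5, and its part in the result was not tested.

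Between cone-primed cells and cone day 5, edgeR's quasi-likelihood test called 75 of 79 members lower and 0 higher at a Benjamini-Hochberg adjusted p under 0.05, against 10.2% of all 18150 genes called lower, 12.2% called higher and 22.3% called either way. The median log2 fold change of the members was -0.78 (0.582-fold), against 0.05 over all genes. Lower values without overlap between the 2 groups were found for 77 members, against 21% of all genes. In rod cultures the same test called 75 of 79 members lower, against 8.79% of all genes called lower, 8.76% higher and 17.5% either way, with a median of -0.98 (0.507-fold) against 0.05 over all genes. There 76 members were lower without overlap, against 18.7% of all genes. The members not called were Rpl10a, Rpl3l, Rps4l and Rpl6l in cone cultures and Rpl3l, Rpl41, Rpl6l and Rps27l in rod cultures, named after their values were seen.

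The deposited TPM values did not give these calls, and the text that follows rests on the counts. With limma on log2(TPM + 1), 0 members were called in cone cultures at day 5 and 2 in rod cultures, while 7.02% and 4.58% of all genes were called. The median was then 0.17 for the members in cone cultures, beside 0.19 over all genes, and -0.15 in rod cultures, beside 0.13. After TPM was rescaled without mitochondrial and ribosomal RNA genes, an alternative added after the data were seen, the medians were -0.43 and -0.58, with 0 and 4 members called beside 1.32% and 2.01% of all genes. The deposited TPM gave 55.4 to 85.5% of each library to genes over ribosomal RNA, and 37 members were listed at 0 in 1 or more libraries, 36 of them with 1000 or more counts in all. Rps19, for example, had 34604 counts and was listed at TPM 0 in 17 libraries. The 42 tested members with a TPM above 0 in every library had medians of 0.22 in cone and -0.16 in rod cultures, and of -0.41 and -0.65 after rescaling. Summed over members, the share of TPM changed by -0.50 on the log2 scale in cone and by -0.73 in rod cultures, against -0.70 and -0.87 for the share of counts. Which of the 2 kinds of table is closer to the mRNA levels was not tested.

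The P stalk, which recruits the GTPase factors of translation to the large subunit, had the lowest medians of the role lists at day 5, with 3 of 3 members called lower in each condition and medians of -1.03 in cone and -1.25 in rod cultures. Rplp1 (chromosome 9, 61913284 to 61914538) was at 147, 186 and 162 CPM in cone-primed cells and at 82.6, 72.6 and 78.7 CPM in cone cultures at day 5. Its log2 fold change was -1.08 ± 0.21 (SE, adjusted p = 0.000586). In rod cultures it went from 156, 209 and 228 CPM to 99.3, 60.8 and 90.0 CPM, a change of -1.25 ± 0.21 (adjusted p = 0.000171). No library of day 5 reached the lowest primed library for Rplp1 in either condition. Rplp0, the scaffold of the stalk (chromosome 5, 115559467 to 115563727), fell from 232, 297 and 232 CPM to 137, 112 and 123 CPM in cone cultures, by 1.03 ± 0.16 on the log2 scale. In rod cultures Rplp0 fell from 309, 295 and 334 CPM to 153, 104 and 130 CPM, by 1.28 ± 0.16 (adjusted p = 4.47e-06).

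In the small subunit, 31 of 32 tested members were called lower at day 5 in each condition, with medians of -0.80 in cone and -1.03 in rod cultures. Rps29, a zinc-binding protein near the decoding site (chromosome 12, 69157722 to 69159186), was at 59.5, 52.6 and 59.0 CPM in rod-primed cells. It was at 26.6, 23.1 and 20.8 CPM in rod cultures at day 5, a change of -1.28 ± 0.20, beside Rplp0 among the largest falls in rod cultures (adjusted p = 7.09e-05). Rpsa, which helps to mature the small subunit's ribosomal RNA, fell from 281, 378 and 322 CPM to 171, 154 and 160 CPM in cone cultures, by 1.02 ± 0.20. Rps6, whose protein is phosphorylated by the S6 kinases, changed by -0.79 ± 0.16 in cone and -0.93 ± 0.16 in rod cultures. Rps26 changed by -1.02 ± 0.22 and -1.22 ± 0.23, and Rps19, the gene most often mutated in Diamond-Blackfan anaemia, by -0.78 ± 0.20 and -1.01 ± 0.20. Of the 18 members linked to that anaemia, a failure of red cell formation, 18 were called lower in each condition.

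In the large subunit, 41 of 44 tested members were called lower in each condition, with medians of -0.76 in cone and -0.95 in rod cultures. Rpl37 fell from 135, 177 and 149 CPM to 72.5, 69.2 and 79.3 CPM in cone cultures, by 1.06 ± 0.20 (adjusted p = 0.000447). Rpl5, which with Rpl11 escorts the 5S RNA into the ribosome, changed less than the median member, by -0.61 ± 0.14 in cone and -0.86 ± 0.14 in rod cultures. Rpl11 changed by -0.57 ± 0.18 and -0.61 ± 0.18. Rpl3, next to the peptidyl transferase centre, changed by -0.57 ± 0.14 and -0.64 ± 0.14. These genes fell within the range of the list, and the differences between members were not tested.

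The 13 members with a pyrimidine tract at the annotated start had a median log2 fold change of -0.79 in cone cultures at day 5, and the 44 tested members whose windows lacked one had -0.79. In rod cultures these medians were -1.02 and -0.95. A tract was scored only at the exact annotated start, so a member with one starting a few bases away counted as lacking it. The part of the tract in the result was not tested. Length was taken from the longest annotated coding transcript, which need not be the one expressed. Across the 75 members with a length, Spearman's rho of the fold change with length was 0.38 in cone and 0.36 in rod cultures. Members with a shorter length thus had the lower values. Over 14178 genes with a length, rho was 0.13 and 0.23. These correlations run across genes, which are not independent replicates and share their libraries.

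Markers of several cell types moved beside the members. Of 8 dividing-cell markers, 7 were called lower and 0 higher in cone cultures at day 5. Their summed level was then 570 to 768 CPM, against 856 to 1474 CPM in cone-primed cells. In rod cultures 2 of 8 were called lower and 0 higher, with sums of 1402 to 1573 CPM against 1747 to 2207 CPM. No dividing-cell marker was at 0 in these groups. Photoreceptor markers summed to 1231 to 1549 CPM in cone cultures at day 5, above the 730 to 1180 CPM of cone-primed cells, and to 631 to 1052 CPM in rod cultures, where they overlapped the 619 to 1213 CPM of rod-primed cells. Of 6 Muller glia markers, 4 were called higher and 0 lower in each condition, with sums of 607 to 781 CPM in cone-primed cells and 1047 to 1249 CPM at day 5, and of 1086 to 1347 CPM and 1895 to 2082 CPM in rod cultures. Abca8a was at 0 in cone-primed cells. Of 4 astrocyte markers, 3 were called higher in cone cultures, where they summed to 3.72 to 12.3 CPM, and 2 in rod cultures. Of 10 retinal progenitor markers, 5 were called lower and 1 higher in cone cultures, and 4 lower and 0 higher in rod cultures. The part of these lists in the result was not tested.

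**Figure D2:**
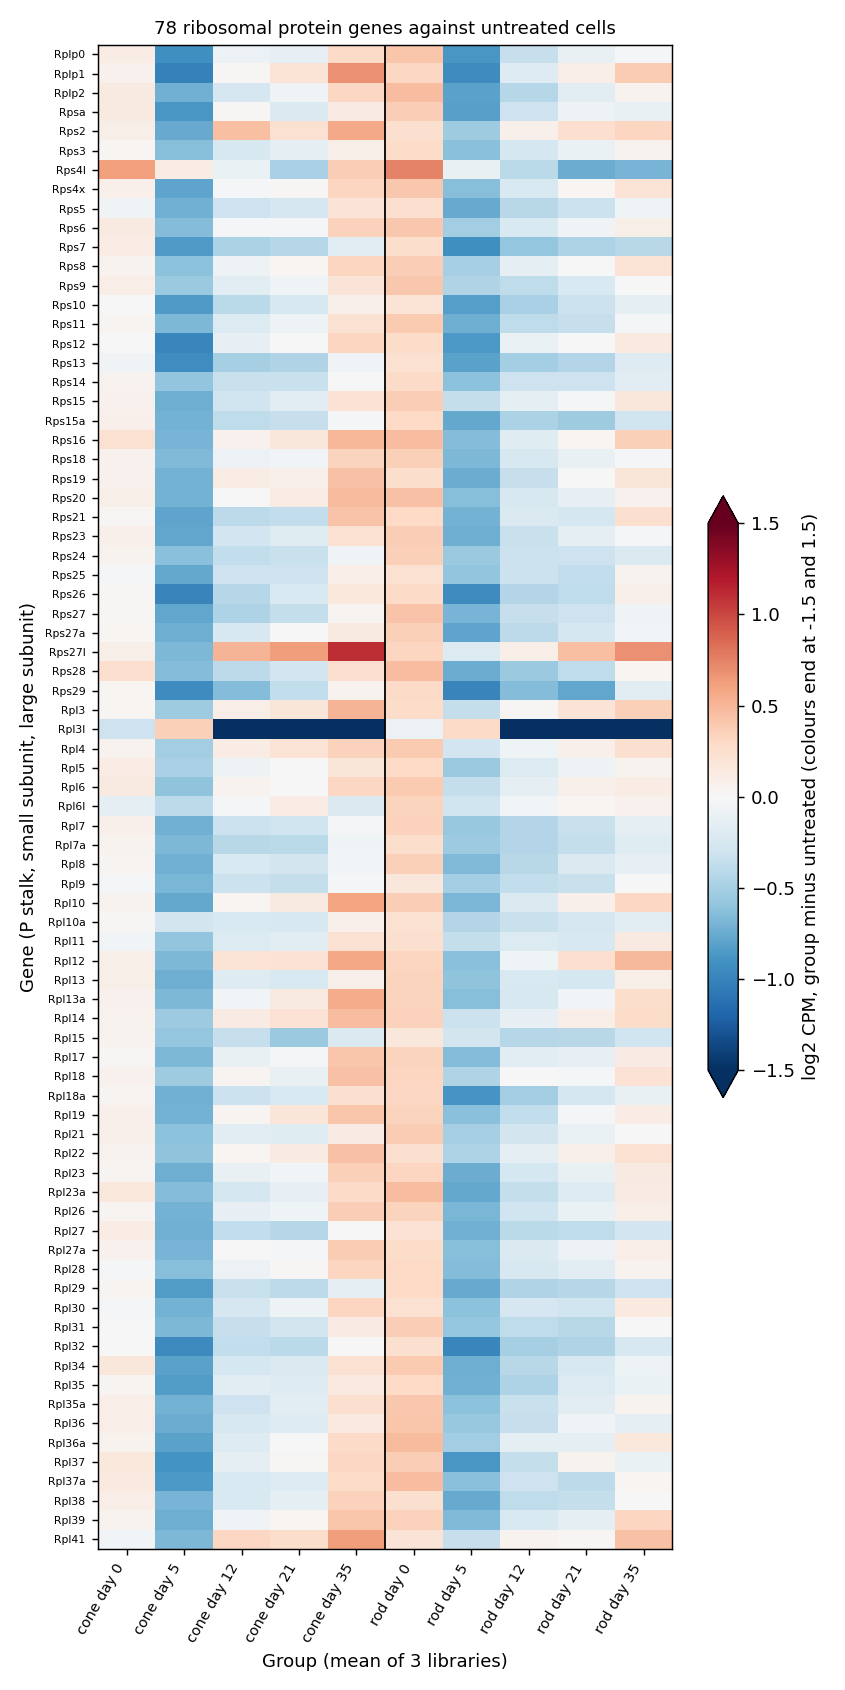
Mean log2 CPM of 78 of the 79 tested members in each group minus the mean in untreated cells, with rows in the order of P stalk, small subunit and large subunit and columns by condition and day. The day 5 columns are below 0 for nearly every row, whereas the rows of Rps27l, Rps4l and Rpl3l differ from the rest.

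From day 5 to day 12 the members rose in cone cultures. There 54 of 79 were called higher and 1 lower, against 24.6% of all genes called higher, 18.6% called lower and 43.2% either way, with a median of 0.50 against 0.03 over all genes. This comparison shares the day 5 libraries with the one above. Rps2, at the mRNA entry side of the small subunit (chromosome 17, 24718116 to 24721929), rose from 47.4, 45.7 and 40.6 CPM to 96.9, 90.3 and 126 CPM, by 1.23 ± 0.21 (adjusted p = 3.87e-05). Rplp1 rose by 1.04 ± 0.21 and Rps27l by 1.20 ± 0.26. The count of members called either way fell from 55 to 26 without cone day 5 replicate 2, to 31 without cone day 5 replicate 3 and to 30 without cone day 12 replicate 3. With TPM no member was called higher and 2 were called lower, beside 7.53% of all genes called, and after rescaling 0 were higher and 1 lower, beside 5.94%. The TPM medians were -0.00085 and 0.019, so the rise was not seen with TPM. Of 8 dividing-cell markers, 6 were called higher in the same comparison. In rod cultures at day 12 against day 5, 0 of 8 were called (median -0.45). Between conditions at day 5, 7 of 8 were called lower in cone cultures, and 0 members were called. The part of the dividing-cell markers in the result was not tested.

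In rod cultures 6 of 79 members were called higher at day 12 against day 5 and 1 lower, against 12.7% of all genes called higher, 5.59% lower and 18.3% either way. The median was 0.35 against 0.03 over all genes, and 76 members were above 0. Rps12, a small subunit protein, rose from 51.7, 38.6 and 41.7 CPM to 78.2, 73.3 and 72.3 CPM, by 0.76 ± 0.21 (adjusted p = 0.00963). Rplp1 rose by 0.73 ± 0.21, Rpl12, at the base of the stalk, by 0.57 ± 0.18 and Rplp0 by 0.52 ± 0.16. Without rod day 5 replicate 2 the count of members called either way was 0, without rod day 12 replicate 1 it was 1, without rod day 5 replicate 3 it was 2 and without rod day 12 replicate 3 it was 3. Between days 12 and 21 edgeR called 0 of 79 members in each condition, with 0 members at an unadjusted p under 0.05 in cone and 3 in rod cultures. All genes were called at 3.36% in cone and 11.2% in rod cultures, and DESeq2 called 0 and 1 members. Between days 21 and 35 it called 0 in each condition, with 27 at an unadjusted p under 0.05 in cone and 13 in rod cultures, where 0.915% and 1.54% of all genes were called. DESeq2 called 0 there in each condition. Without cone day 21 replicate 1, whose median member level was 137 CPM against 69.0 and 91.9 in the other libraries, 26 members were called higher at day 35.

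At day 35 few members differed from primed cells in cone cultures, and about as many as among all genes were lower in rod cultures. In cone cultures 10 of 79 were called higher than in cone-primed cells and 1 lower, against 31.1% of all genes called higher, 26.5% lower and 57.7% either way, so the share of members called was below that of all genes. The median was 0.16 against 0.03 over all genes, and -0.12 with rescaled TPM. The members' share of counts was 1.30% ± 0.185 (SD, n = 3) at day 35 and 1.42% ± 0.175 in cone-primed cells, a log2 ratio of -0.13 that was within the spread of the libraries (exact permutation p = 0.6). The largest rises were those of Rps27l at 1.00 ± 0.26, Rpl41, a very short peptide of the large subunit, at 0.67 ± 0.20 and Rplp1 at 0.62 ± 0.21. Rpl10, which joins the large subunit late in its assembly, rose by 0.56 ± 0.20, Rpl13a by 0.50 ± 0.15, Rpl3 by 0.47 ± 0.14 and Rpl22 by 0.39 ± 0.13. Left-out libraries moved the count called either way, 11, to between 3, without cone day 0 replicate 3, and 19, without cone day 0 replicate 2. It was 5 without cone day 0 replicate 1 or cone day 35 replicate 3, 7 without cone day 35 replicate 1 and 4 without the 4 shallow libraries, the first replicates of the 3 day 0 groups and of rod day 5, which held 7511837 to 8165696 gene counts.

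In rod cultures 25 of 79 members were called lower at day 35 than in rod-primed cells and 0 higher, against 26.2% of all genes called lower, 29.4% higher and 55.6% either way. The median was -0.35 against 0.04 over all genes. Rps7, an early-assembling small subunit protein (chromosome 12, 28630847 to 28635953), fell from 209, 223 and 238 CPM to 126, 154 and 141 CPM, by 0.67 ± 0.17 (adjusted p = 0.00127). Rpsa fell by 0.48 ± 0.19, Rps27 by 0.47 ± 0.19, Rpl15 by 0.46 ± 0.13 and Rplp0 by 0.43 ± 0.16. The count was 8 without rod day 0 replicate 3 and 12 without rod day 35 replicate 1, and it was 1 with TPM, beside 3.91% of all genes, and 1 with rescaled TPM, beside 7.39%. Of 8 dividing-cell markers, 8 were called lower in rod and 7 in cone cultures at day 35, and their part in the result was not tested.

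**Figure D3:**
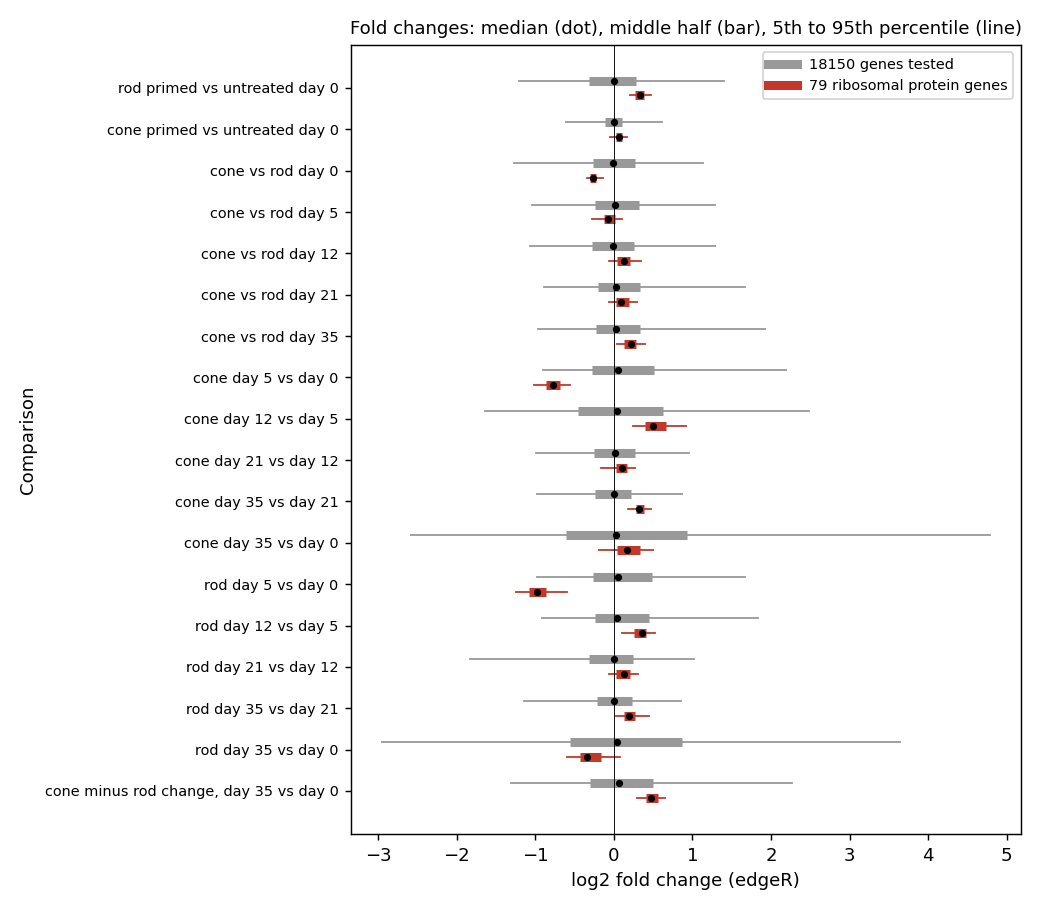
Log2 fold changes by comparison for all 18150 genes tested (grey) and the 79 members (red), with the median as a dot, the interquartile range as a bar and the 5th to 95th percentile as a line. The members' bars are narrow beside those of all genes; their medians are lowest at day 5 against day 0, at -0.78 in cone and -0.98 in rod cultures.

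At day 0, the median member level was higher in rod-primed than in untreated cells, but no single member passed edgeR's test. The median CPM was 121, 123 and 134 in rod-primed and 91.0, 109 and 103 in untreated libraries, which did not overlap. The median log2 fold change was 0.33 against 0.00 over all genes, and 78 of 79 members were above 0. With TPM the median was 0.011, with 40 members above and 36 below 0, and after rescaling it was 0.18. EdgeR called 0 of 79, against 10.3% of all genes, with 31 at an unadjusted p under 0.05. The other tests called 1 member with DESeq2's size factors, 1 with scaling without ribosomal protein, mitochondrial and ribosomal RNA genes, and 3 with DESeq2. Of 8 dividing-cell markers, 5 were called higher in rod-primed cells, and their part in the result was not tested. Cone-primed cells differed from untreated cells by a median of 0.06, with 0 of 79 members called by edgeR, 1 at an unadjusted p under 0.05 and 0 by DESeq2, and with 0% of all genes called.

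Cone against rod, edgeR called 0 of 79 members at days 0, 5, 12 and 21 and 1 at day 35. At day 0 the median was -0.26 and all 79 members were below 0, with 5 at an unadjusted p under 0.05, where 7.27% of all genes were called. The medians of days 5, 12, 21 and 35 were -0.07, 0.13, 0.10 and 0.22, with 2, 2, 1 and 5 members at an unadjusted p under 0.05. In those comparisons 9.28%, 10.1%, 9% and 12.3% of all genes were called. DESeq2 called 0 members at days 0, 5, 12 and 21. The sign of the median was not stable at day 5, where leaving out 1 library gave -0.18 to 0.046 and other scalings -0.060 to 0.059. At day 21 leaving out 1 library gave -0.23 to 0.26, and TPM gave -0.25, or -0.21 after rescaling. The change from day 0 to day 35 was compared between conditions by an interaction term. All 79 members had a value above 0, with a median of 0.47 against 0.07 over all genes, yet 0 were called, against 5.66% of all genes, and 28 had an unadjusted p under 0.05. DESeq2 called 1. The untreated and primed libraries are shared between these comparisons, so their directions are not independent.

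Most members departed from the list's median by less than that median itself ranged over the groups. For each member, the group mean of log2 CPM was taken relative to the median member, and its range over the 11 groups was 0.35 at the median member and under 0.5 for 64 of 79. The median itself ranged over 1.01. Each member is part of it, and ranges of other genes were not taken. Pearson's r with the median profile over the 11 group means was 0.9 or more for 59 members and had a median of 0.96, given as a description. The 5 members with the widest departure were Rpl3l at 4.14, Rps4l at 1.58, Rpl15 at 0.85, Rpl6l at 0.84 and Rps27l at 0.78.

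Rpl3l replaces RPL3 in the ribosomes of heart and skeletal muscle. It was at 1.15, 1.00 and 1.15 CPM in untreated cells, from 9, 15 and 17 counts, and Rpl3 was at 220, 288 and 264 CPM. At day 5 Rpl3l had 16, 40 and 20 counts in cone and 8, 36 and 16 in rod cultures. In cone cultures it had 0, 0 and 3 counts at day 12, 0, 0 and 3 at day 21 and 0, 0 and 1 at day 35. In rod cultures it had 0, 10 and 0 counts at day 12 and 0 in every library at days 21 and 35. The rod-primed libraries held 29 counts in sum, and edgeR called the fall to 0 counts in rod cultures at day 35 (adjusted p = 0.000992). Its size is not given, as a ratio to 0 counts has no upper end. Summed over libraries, Rpl3l had 27 counts in cone-primed cells and 1 in cone cultures at day 35. Scaled by total gene counts, without the trimmed mean of M values, it was 38.7-fold lower at day 35. The exact 95% interval was 6.38 to 1585 and covers counting error only. EdgeR, with its own scaling, gave an adjusted p of 0.00384. With Rpl3l set to a limit taken from 3 counts per library, the members' median in rod cultures at day 35 stayed at -0.35. Rpl3l (chromosome 17, 24727820 to 24736143) lies close to Rps2, and reads shared with Rpl3 could not be examined in these tables.

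Rps27l, a paralogue of Rps27 that p53 induces (chromosome 9, 66946086 to 66949516), was at 12.5, 19.1 and 13.8 CPM in cone-primed cells. It was at 10.1, 8.51 and 7.56 CPM in cone cultures at day 5 and at 36.1, 26.8 and 28.2 CPM at day 35. The day 35 libraries lay above all cone-primed libraries, and the change was 1.00 ± 0.26 (adjusted p = 0.00167). In rod cultures Rps27l went from 15.1, 19.3 and 18.2 CPM to 16.1, 25.1 and 27.7 CPM at day 35, groups that overlapped (0.39 ± 0.26, adjusted p = 0.203). The difference between the conditions' changes was 0.61 ± 0.36 (adjusted p = 0.36). Rps27 itself changed by 0.03 ± 0.19 in cone cultures and fell by 0.47 ± 0.19 in rod cultures. Deposited TPM listed Rps27l at 0 in 32 of 33 libraries, so TPM holds nothing on this gene.

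Rps4l, a copy of the X-linked Rps4x on chromosome 6 (148354656 to 148355598), was the member called between conditions at day 35. It was at 5.72, 4.64 and 6.05 CPM in cone and at 3.06, 1.37 and 3.74 CPM in rod cultures, without overlap. The difference was 0.99 ± 0.27 (edgeR's adjusted p = 0.0163), against 7.77% of all genes called higher. It was not called without cone day 35 replicate 3 or without rod day 35 replicate 2, nor with TPM. In rod cultures Rps4l fell from 8.00, 6.05 and 7.45 CPM in primed cells, by 1.38 ± 0.28 (adjusted p = 0.000127). In cone cultures the change was -0.24 ± 0.27 (adjusted p = 0.456), and the difference between these changes was 1.14 ± 0.38 (adjusted p = 0.0764). Reads of near-identical copies can be split between genes or lost, so the level of Rps4l is uncertain.

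Rpl15, at the large subunit's core (chromosome 14, 18267823 to 18271391), fell by day 5 in both conditions and was still called lower at day 35 in rod cultures. It was at 53.4, 74.0 and 63.1 CPM in cone-primed cells, 47.3, 39.0 and 36.8 at day 5 and 59.7, 45.5 and 53.2 at day 35. In rod cultures it was at 70.9, 64.5 and 69.7 CPM, then 57.2, 47.0 and 47.0, and then 46.7, 51.0 and 50.8 CPM. Its fold changes at day 35 were -0.27 ± 0.13 (adjusted p = 0.0758) in cone and -0.46 ± 0.13 (adjusted p = 0.00323) in rod cultures. With TPM the rod value turned to 0.54, and to 0.95 after rescaling. Rpl6l had 3 to 15 counts per library and was called in no comparison.

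**Figure D4:**
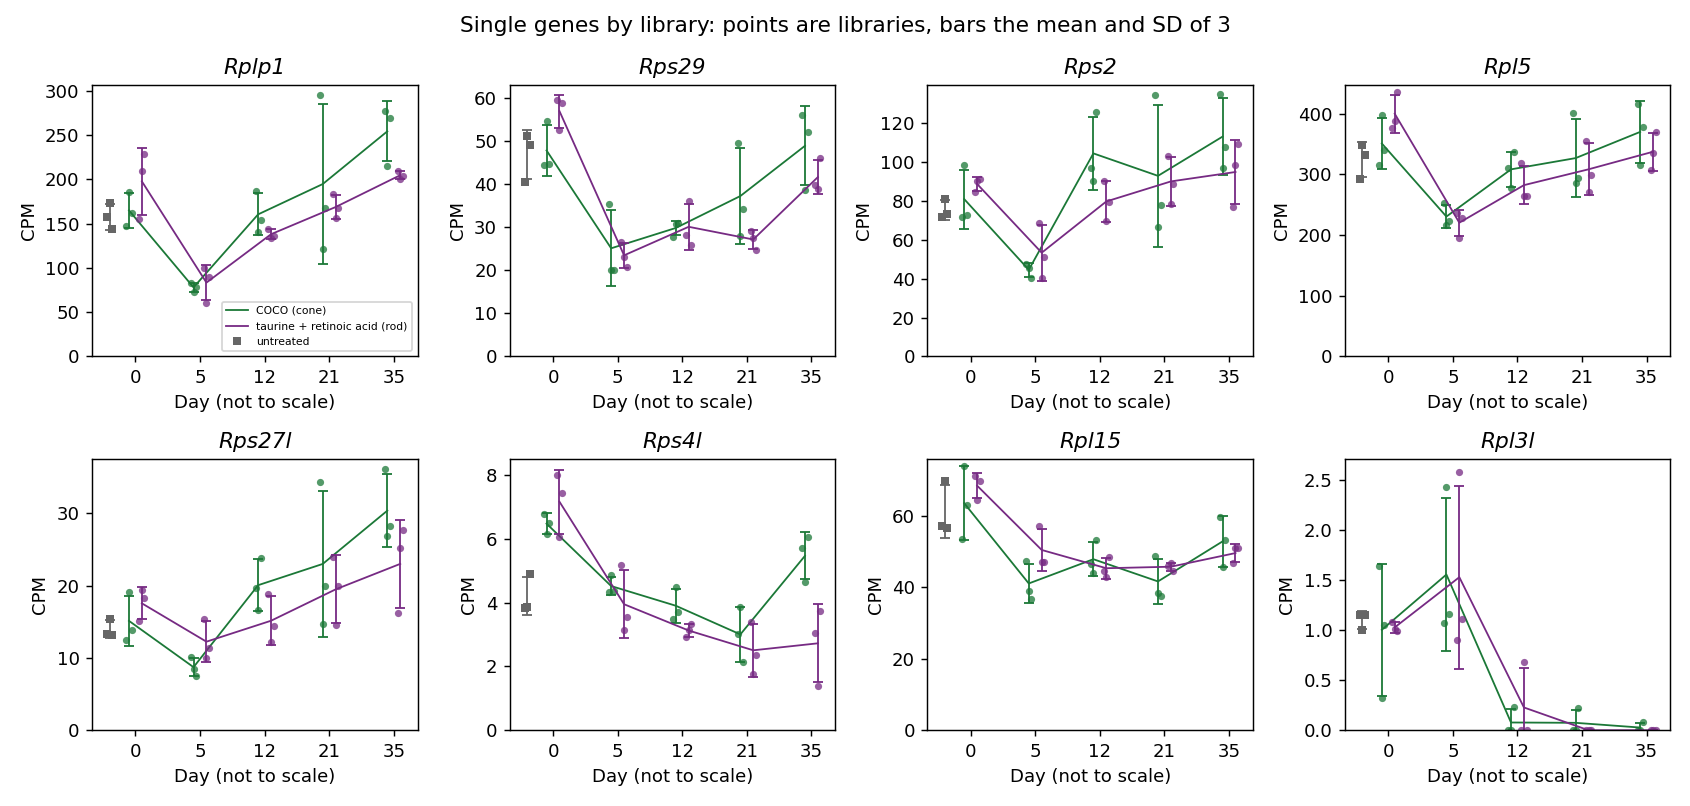
CPM of 8 members by day, with points for libraries and bars for the mean and SD of 3. Rplp1, Rps29, Rps2 and Rpl5 are lower at day 5 than in primed cells, and Rps27l is highest in cone cultures at day 35. Rpl3l is at or near 0 from day 12, apart from rod day 12 replicate 2, with 10 counts.

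Levels per length of the longest annotated coding transcript spread widely. That transcript need not be the one expressed, which was not tested, and a long one lowers the value. Rps15a, with a length of 5179 bases, was at 20.8 CPM per kilobase in untreated cells. In untreated cells they ran from 0.685 CPM per kilobase for Rpl24 to 379 ± 43.4 (SD, n = 3) for Rpl26. Rplp1, also among the highest, was at 316 ± 29.3 CPM per kilobase. The low count of Rpl24, 1 to 12 per library, stood beside a median deposited TPM of 59.1, and its gene model overlaps another, Gm28037, with 0 counts. Of the 80 members, 43 overlap another gene model, and the strand setting of the counting is not given in the sources used here, so such counts are uncertain.

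Other genes linked to the ribosome are read at day 5 beside 10.2% of all genes called lower in cone and 8.79% in rod cultures. Of 25 other mRNAs known for a TOP tract, 18 were called lower and 0 higher in cone cultures at day 5 (median -0.56), and 20 were lower and 1 higher in rod cultures (median -0.53). Eef1a1, which brings aminoacyl-tRNA to the ribosome, changed by -0.66 ± 0.17 in cone and -0.82 ± 0.17 in rod cultures. Of 8 ribosomal proteins outside the name rule, 4 and 5 were called lower, among them Fau at -0.54 ± 0.14 and -0.95 ± 0.14. Of 76 tested mitochondrial ribosomal proteins, 22 were called lower and 0 higher in cone cultures (median -0.39) and 21 lower and 1 higher in rod cultures (median -0.34). Of 40 ribosome biogenesis factors, 8 and 11 were called lower and 1 was called higher in each condition, Rrp1b, with medians of -0.18 and -0.20. In cone cultures their calls either way were near the 22.3% of all genes.

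At day 35 the lists are read beside 31.1% of all genes called higher and 26.5% lower in cone cultures, and 29.4% and 26.2% in rod cultures. Mitochondrial ribosomal proteins had 4 called higher and 21 lower in cone cultures and 3 higher and 38 lower in rod cultures. Mrps6 rose by 3.16 ± 0.23 and 2.17 ± 0.23. Biogenesis factors had 7 higher and 9 lower in cone and 5 higher and 15 lower in rod cultures, with Sbds, which releases eIF6 from new large subunits, up by 1.12 ± 0.14 and 0.72 ± 0.14. Gar1, a part of the pseudouridylation complex, fell by 0.95 ± 0.21 and 0.78 ± 0.20. Among 19 tested regulators, 8 rose and 4 fell in cone and 7 rose and 4 fell in rod cultures, near the 57.7% and 55.6% of all genes called either way. Mycn, a driver of ribosome production in progenitors, changed by -5.56 ± 0.58 and -4.01 ± 0.52. Cdkn1a, a p53 target that halts the cell cycle, rose by 4.21 ± 0.40 and 2.58 ± 0.38, and Myc rose by 2.50 ± 0.36 and 2.62 ± 0.36.

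**Figure D5:**
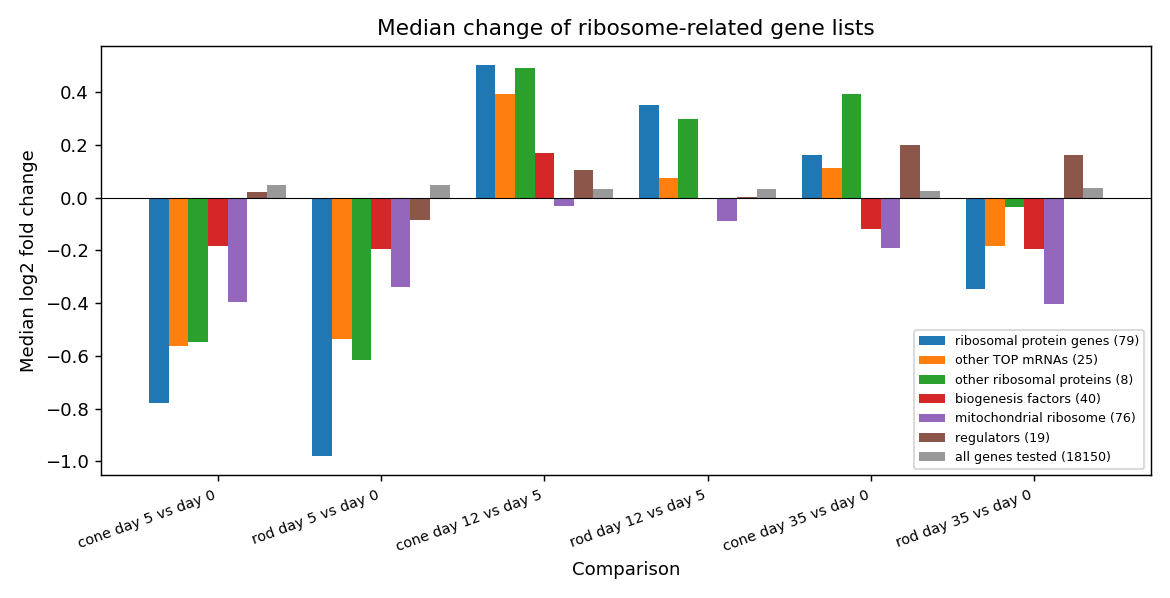
Median log2 fold change of the members, 5 related lists and all genes tested in 6 comparisons, with bars from 0. At day 5 the members have the lowest medians of these lists, at -0.78 in cone and -0.98 in rod cultures; no test between lists was made.

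The genes outside the list whose group means were most like the members' median profile were chosen by Pearson's r over the 11 groups, among 7116 candidates. They were Gnb2l1 (the ribosome-bound scaffold also named Rack1) at 0.988, Eef1a1 at 0.986, Rps3a1 at 0.985, Ftl1 at 0.981 and Mrpl52 at 0.980. Fau at 0.979, Cox7a2l at 0.972, Tbca at 0.963, Atp5l at 0.960 and Txn1 at 0.956 followed.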

How the data were processed

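Total RNA was extracted and made into libraries with low-input Takara kits, per the labels' protocols. The authors deposited unnormalised read counts per gene and, per the file headers, TPM, FPKM and coverage. The submitters' processing notes name HISAT2, StringTie, HTSeq and GRCm38, without versions or roles, and the strand setting is not given in the sources used here. FPKM and coverage were not used. Libraries were grouped by the labels' treatment and day. Genes passed filterByExpr at a minimum count of 10 (18150 of 32488 with any count). One edgeR quasi-likelihood model (edgeR 4.0.16, limma 3.58.1, R 4.3.3) with TMM scaling was fitted to all 33 libraries and Benjamini-Hochberg adjustment ran over all genes of a comparison, with calls at 0.05. Deposited TPM, on a log2 scale with a pseudocount of 1, was an alternative by limma, as were DESeq2 1.42.0, its size factors, scaling without the members, no filter, a replicate block and leaving out each library. Rescaled TPM and leaving out 4 shallow libraries were added after the data were seen. Tables and figures used Python 3.11.15 (pandas 2.3.3, scipy 1.17.1, matplotlib 3.10.9).

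Earlier results of these data were known when the members, the lists and the naming rule were chosen. The rule names a fixed set of members, the 3 largest rises and 3 largest falls called in each comparison, the 5 members departing most from the list, the 10 most alike other genes, and up to 3 called genes of each other list at day 35. Reads carry no molecular identifiers, so intervals and floors cover counting error only. Replicates were not duplicates: the lowest chi-square per degree of freedom between replicates was 7.80. Counts of 18150 genes were simulated for cone day 5 against day 0, with 100 random genes changed at each fold size and the rest unchanged. Of the genes changed 2-fold 42% were recovered, and of those changed 4-fold 79%. Of the recovered genes 100% had the right direction, with 7 false calls. Genes were drawn independently and at any level, so these rates need not hold for members, which move together. Values of 1 tested member are not reported here on their own, and it is counted in the totals.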

Additional observations from a re-analysis of the deposited data

Results flagged for a closer look

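Over the lists of ribosomal and related genes, 5 genes differed in their day 0 to day 35 change between cone and rod cultures. In each the cone change was the higher, and none is a member. The interaction term of edgeR's quasi-likelihood model, which gave these calls, called 5.66% of all 18150 genes. Tested in the related lists were 25 TOP mRNAs, 8 other ribosomal proteins, 40 biogenesis factors, 76 mitochondrial ribosomal proteins and 19 regulators. The differences on the log2 scale were 1.11 ± 0.26 for Tpt1 (SE, adjusted p = 0.0107), 1.86 ± 0.36 for Vim (adjusted p = 0.00216), 0.66 ± 0.20 for Fau (adjusted p = 0.0434), 1.71 ± 0.38 for Eif4ebp1 (adjusted p = 0.00632) and 0.66 ± 0.20 for Mdm2 (adjusted p = 0.05). Tpt1 and Vim carry TOP mRNAs, Fau encodes a ribosomal protein, Eif4ebp1 an inhibitor of cap-dependent translation and Mdm2 the ubiquitin ligase of p53. Fau went from 84.5 ± 9.02 to 107 ± 12.4 CPM (SD, n = 3) in cone and from 105 ± 11.7 to 83.7 ± 10.5 CPM in rod cultures.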

How the results depend on the processing

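The members' median at day 5 stayed below 0 in both conditions under each alternative on counts, with 59 to 75 members called lower in cone and 70 to 76 in rod cultures. With TPM the median was 0.17 in cone and -0.15 in rod cultures, and after rescaling -0.43 and -0.58. With TPM, members called were 0 in cone cultures at day 5, 2 in rod cultures at day 5, 2 and 0 at day 12 against day 5 in cone and rod, 1 and 1 at day 35 against day 0 in cone and rod, and 0 between conditions at day 35. With rescaled TPM these were 0, 4, 1, 1, 0, 1 and 0, with 1 between conditions at day 5. The members' share of TPM changed by -0.50 (log2) in cone cultures at day 5. On counts, rod-primed against untreated cells gave 1 call with DESeq2's size factors, 1 with scaling without ribosomal protein, mitochondrial and ribosomal RNA genes and 3 with DESeq2. DESeq2 gave 1 between rod days 12 and 21 and 1 for the difference between conditions in the day 35 change. Leaving out the 4 shallow libraries gave 4 for cone cultures at day 35. Except for the effect of leaving out samples, the causes were not tested.

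With TPM, 49 of all 79 tested members were above 0 in cone cultures at day 5 and 26 in rod cultures. After rescaling these were 26 and 16. Only called members named by the rule are listed here. Their values that turned in sign did so with TPM, and are given with the rescaled value in brackets where it turned too. At day 5 in cone cultures they were Rpl37 0.17, Rpl10 0.084, Rps26 0.050, Rpl22 0.70 (0.22), Rps4x 0.33, Rpl5 0.76 (0.11), Rpl3 0.85 (0.43), Rps27 0.029 and Rpl15 0.18. In rod cultures they were Rps29 0.65 (0.34), Rplp2 0.65 (0.25), Rpl5 0.97 (0.55) and Rpl15 0.57 (0.39). At day 12 against day 5 in cone cultures they were Rplp1 -0.90 (-1.51), Rps26 -0.14 (-0.078), Rplp2 -0.76 (-0.82), Rpl22 -0.14 (-0.11), Rps4x -0.25 (-0.22), Rpl5 -0.78 (-0.76) and Rpl3 -0.14 (-0.11), and in rod cultures Rplp1 -0.093 (-0.029) and Rps12 -0.36 (-0.30). At day 35 they were Rplp1 -0.077 (-0.36) and Rpl13a -0.23 (-0.54) in cone and Rplp0 0.27 (0.39) and Rpl15 0.54 (0.95) in rod cultures.

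Without 1 library, the members' median ranged across 0 between cone days 12 and 21 (-0.22 to 0.25), for cone-primed against untreated cells (-0.059 to 0.16), and between conditions at day 5 (-0.18 to 0.046) and day 21 (-0.23 to 0.26). Leaving out each library in turn gave 59 to 75 members called at day 5 in cone and 70 to 76 in rod cultures, 26 to 54 and 0 to 10 at day 12 against day 5, 3 to 19 and 8 to 32 at day 35 against day 0, and 0 to 26 between cone days 21 and 35. It gave 0 to 1 between conditions at day 35, for rod-primed against untreated cells, between rod days 12 and 21 and for the difference in the day 35 change. Same-numbered libraries had a mean correlation of 0.024, from -0.26 to 0.51, against -0.012 for different numbers. While 0 of 55 pairs of groups had every correlation over 0.1, 19 of 33 libraries correlated best with their own number. Whether some groups were paired by replicate number cannot be told from these values. With the replicate block, members called were 75 and 75 at day 5, 56 and 8 at day 12 and 11 and 28 at day 35 in cone and rod cultures.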
